A study of Mus musculus with 10 samples.

Results

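The genes of the proteasome were examined in microglia, the resident macrophages of the brain, from wild-type (WT) mice and from mice lacking the transcriptional repressors Bhlhe40 and Bhlhe41 (double knockout, DKO). They were taken as the protein-coding genes whose symbols begin with Psma, Psmb, Psmc, Psmd, Psme, Psmf or Psmg and a digit and whose mean estimated count over the 10 libraries was at least 10. Of 50 such symbols 49 met this minimum, among 11521 protein-coding genes that met it and 53697 genes in all. The mean counts that chose them ran from 45.5 for Psmc3ip, 78.9 for Psme2b and 177 for Psma8, the lowest of those that met it, to 7412 for Psmb8, and the thymus-specific subunit Psmb11 fell just outside with 9.3. One of the 49, Psmc3ip, is a recombination factor named after its partner Psmc3 and is no subunit. All 49 passed the filter on low counts and were tested.

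Microglia were sorted from the brains of untreated female mice on the C57BL/6 background as viable CD45.2+ CD11b+ cells without Ly6C, Ly6G, MHCII or CD38, and 5 libraries of each genotype were sequenced, named here WT 1 to WT 5 and DKO 1 to DKO 5 after their replicate numbers. DKO mice were Bhlhe40-/- Bhlhe41-/-. WT mice were C57BL/6J or Rosa26Stop-YFP, which carries a reporter construct in the Rosa26 locus, and neither the kind of WT mouse nor the age, stated as at least 2 and 6 months, is assigned to a library. The libraries are labelled biological replicates, with no word on whether each is a single mouse or on what equal numbers have in common, and the p-values rest on the variation among these libraries. The kit does not mark strand.

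The proteasome is the barrel-shaped protease that degrades proteins tagged with ubiquitin. Its 20S core is a stack of rings of alpha and beta subunits, and in the beta rings Psmb5, Psmb6 and Psmb7 carry the active sites. Cells of the immune system, and other cells under interferon, replace these with Psmb8, Psmb9 and Psmb10 to form the immunoproteasome, which favours cleavage into peptides that fit MHC class I molecules. The 19S particle, built from Psmc and Psmd proteins, recognises and unfolds substrates, while the PA28 proteins Psme1 and Psme2 form an alternative cap that is also induced by interferon.

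Total estimated counts were 22483044 to 26109107 per library. The 10 microglia markers listed summed to 82707 to 91602 CPM, the counts scaled to a common library size, in WT and 77804 to 93980 in DKO, and the neutrophil markers to at most 0.301 and 0.326 CPM, with S100a8 and S100a9 at 0 in every library. The microglia marker P2ry12, a purine receptor, was lower in DKO without overlap, at 10766 ± 1335 CPM in WT and 7609 ± 974 in DKO (log2 fold change -0.50, edgeR adjusted p = 0.0301). It was the only 1 of the 10 called, where 1.85% of all genes tested were called lower. The other 9 were not called, and over all 10 markers 4 fold changes were above 0 and 6 below. Oligodendrocyte markers summed to 196 to 229 CPM in WT and 197 to 212 in DKO, mostly from Cnp, Mbp and Mag. B cell markers summed to 418 to 677 CPM in WT and 526 to 886 in DKO, nearly all from Ighm and Cd79b, and in bulk RNA fewer cells of a type and less RNA per cell cannot be told apart. Of the knocked-out genes, Bhlhe40 was at 0.601 ± 0.385 CPM (SD, n = 5) in WT and 0.177 ± 0.136 in DKO with overlapping libraries, and Bhlhe41 was at 35.9 ± 6.67 and 50.9 ± 8.45, so a gene-level count does not show the loss of either gene. Which parts were deleted is not stated in the sources, and the genotypes below are those of the labels. Mitochondrial transcripts took 0.986% to 1.75% of counts in WT and 1.04% to 1.58% in DKO, and the RNA repeat gene Gm23935 took 2.85% to 20.3% of TPM in WT but 23.2% to 26.6% in DKO, which lowers the TPM of every other gene in DKO, so that CPM were used throughout.

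Transcripts of the immunoproteasome were abundant in microglia of either genotype, and none of its genes was called different between them. Of the 49 proteasome genes, 0 were called higher and 0 lower in DKO by edgeR's quasi-likelihood test with Benjamini-Hochberg adjustment, where 4.34% of all 13916 genes tested were called higher and 1.85% lower. At an unadjusted p under 0.05 the counts were 1 higher and 3 lower, against 13.3% and 10% of all genes. DESeq2 and limma voom also called 0. A term in the fit for the libraries numbered 1 to 3 and 4 to 5 called 0 higher and 2 lower (all genes 6.15% and 4.13%). Library size alone called 1 lower (all genes 3.21%), and leaving out WT 3 called 1 higher (all genes 8.25%). In 0 of 49 were the genotypes without overlap, whereas 4.34% of all genes were higher and 3.28% lower without overlap. Log2 fold changes ran from -0.27 to 0.59 with a median of -0.077, beside -0.0095 over all genes tested. Of the 49, 15 were above 0 and 34 below, where 48.7% of all genes tested were above 0. Without WT 4 and WT 5, but with DKO 4 and DKO 5 kept, 31 were above 0 and 18 below with a median of 0.039. Libraries numbered 1 to 3 alone gave 17 above and 32 below, and numbers 4 and 5 alone 12 and 37. A term in the fit for these 2 sets gave 16 and 33. Other scalings of the counts left 9 to 15 above 0 and a correction for GC content 4. On log2 TPM, with 1 or 0.1 added, 1 of 49 was above 0 and 48 below, and 37 were called lower by limma, where the median of all genes moved to -0.26 and -0.35 and 30.1% of all genes were called lower.

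**Figure D1:**
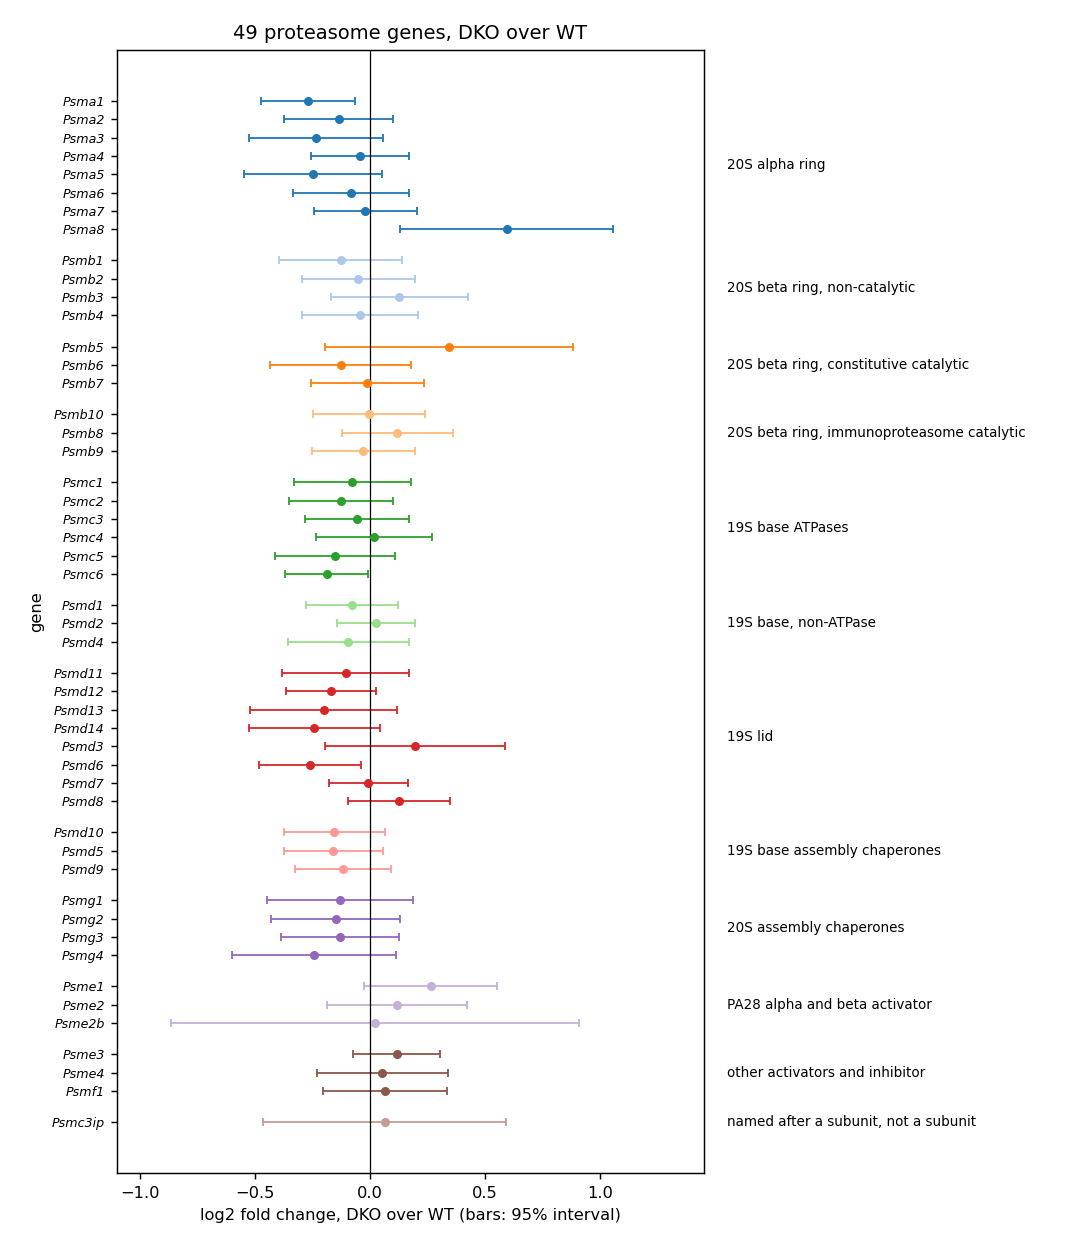
Log2 fold change of each of the 49 genes, DKO over WT, from edgeR (x axis, log2 units), with genes grouped and coloured by role and bars showing the 95% interval. All but 4 bars cross 0. Those of Psma1, Psmd6 and Psmc6 lie below it and that of Psma8 above, and none passed the adjustment over all genes.

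Promoters, taken from RefSeq on GRCm38.p6 as 250 bases before to 50 after the start, were found for 41 of the 49 genes. They were searched on both strands for 4 short motifs. The E-box CACGTG, the form that Bhlhe40 and Bhlhe41 bind, was in promoters of 4 of 41 genes (9.76%) and of 8.09% of 27025 genes. The antioxidant response element TGACNNNGC, bound by NRF factors with small Maf proteins, was in 14.6% and 14% of genes. The gamma-activated site TTCNNNGAA was in 7.32% and 9.55%, and GAAANNGAA, a core of the interferon-stimulated response element, in 17.1% and 9.76%. The promoters of the immunoproteasome genes Psmb8 and Psmb10, of Psme1 and of Psmb5 are shown. Each held one of the motifs, which is in capitals. Other promoters with a match, among them that of Psmb6 with TGACNNNGC, are not shown. TTCNNNGAA was also in those of Psmd2 and Psmg1, and GAAANNGAA in those of Psmb3, Psmb4, Psmc2, Psmd4, Psmd9 and Psmg4. None of these is an immunoproteasome or PA28 gene. For all 4 genes shown, the RefSeq and GENCODE M21 starts differ, and the windows are set on the RefSeq start. Those of Psmb8 and Psme1 lie inside the bounds of these genes in GENCODE M21, which begin at chr17:34197721 and chr14:55578123. For Psmb10 and Psmb5, on the minus strand, the GENCODE M21 starts at chr8:105938444 and chr14:54618022 lie within the windows.
Psmb8, chr17:34197945-34198244, plus strand, TTCNNNGAA: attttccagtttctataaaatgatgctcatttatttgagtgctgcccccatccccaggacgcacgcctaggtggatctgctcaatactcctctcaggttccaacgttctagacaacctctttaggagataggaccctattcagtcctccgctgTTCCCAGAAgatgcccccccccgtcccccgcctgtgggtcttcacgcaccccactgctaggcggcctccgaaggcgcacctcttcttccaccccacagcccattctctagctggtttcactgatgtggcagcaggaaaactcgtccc
Psmb10, chr8:105938343-105938642, minus strand, CACGTG: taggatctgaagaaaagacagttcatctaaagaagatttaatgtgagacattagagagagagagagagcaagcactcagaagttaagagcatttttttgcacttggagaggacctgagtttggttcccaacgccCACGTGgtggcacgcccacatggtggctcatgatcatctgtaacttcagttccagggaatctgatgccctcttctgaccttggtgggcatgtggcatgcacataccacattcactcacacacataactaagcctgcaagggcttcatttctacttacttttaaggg
Psme1, chr14:55578244-55578543, plus strand, GAAANNGAA: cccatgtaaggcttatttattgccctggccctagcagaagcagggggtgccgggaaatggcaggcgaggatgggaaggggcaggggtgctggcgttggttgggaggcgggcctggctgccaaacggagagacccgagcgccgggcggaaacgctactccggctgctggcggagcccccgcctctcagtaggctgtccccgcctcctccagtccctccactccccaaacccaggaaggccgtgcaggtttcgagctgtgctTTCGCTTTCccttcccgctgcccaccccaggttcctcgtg
Psmb5, chr14:54617946-54618245, minus strand, TGACNNNGC: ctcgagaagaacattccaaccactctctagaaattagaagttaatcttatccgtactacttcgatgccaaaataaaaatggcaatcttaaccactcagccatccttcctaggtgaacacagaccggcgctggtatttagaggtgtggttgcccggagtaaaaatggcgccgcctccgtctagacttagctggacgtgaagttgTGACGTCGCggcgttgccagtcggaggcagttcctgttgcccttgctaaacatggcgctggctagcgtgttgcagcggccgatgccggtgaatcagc

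Psmb8, the immunoproteasome subunit that takes the place of Psmb5, had the highest count of the 49 genes. Its level was 275, 250, 250, 334 and 344 CPM in WT 1 to WT 5 and 289, 297, 339, 321 and 332 CPM in DKO 1 to DKO 5. WT 2 and WT 3 were the lowest and WT 5 the highest, so the DKO libraries all lay within the WT range. The means were 290.7 ± 45.5 and 315.5 ± 21.9 CPM, a log2 fold change of 0.12 (SE 0.11, edgeR adjusted p = 0.548) whose 95% interval runs from a 0.919-fold to a 1.28-fold level. The top of the WT range came from WT 4 and WT 5, while DKO 1 to DKO 3 all lay above WT 1 to WT 3. Libraries numbered 1 to 3 alone gave a log2 fold change of 0.25 (edgeR adjusted p = 0.297), and numbers 4 and 5 alone -0.057 (edgeR adjusted p = 0.832). The gene lies at chr17:34197721-34201454 on the plus strand of GRCm38 and overlaps an exon of Gm20496 on the other strand, from which reads there cannot be told apart.

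Psmb9, the counterpart of Psmb6, was measured at 69.4, 58.2, 64.8, 83.8 and 73.8 CPM in WT and 66.1, 64.6, 68.0, 71.6 and 72.5 CPM in DKO. The DKO libraries were again held within the WT range, and the log2 fold change was -0.030 (SE 0.10, edgeR adjusted p = 0.886, interval 0.838-fold to 1.14-fold). Psmb9 lies at chr17:34181987-34187764 and overlaps an exon of Tap1, a peptide transporter gene, on the opposite strand. Psmb10, the counterpart of Psmb7, was at 94.8, 95.7, 101, 136 and 119 CPM in WT and 107, 102, 105, 117 and 114 CPM in DKO. Its means of 109.4 ± 18.1 and 109.1 ± 6.29 CPM gave a log2 fold change of -0.0044 (SE 0.11, edgeR adjusted p = 0.986, interval 0.842-fold to 1.18-fold). For Psmb10, libraries numbered 1 to 3 alone gave 0.10 (edgeR adjusted p = 0.571) and numbers 4 and 5 alone -0.15 (edgeR adjusted p = 0.612). A 2-fold rise of any of these 3 genes lies outside its interval. On the TPM scales, which shifted all genes downward as given above, Psmb9 (-0.38, limma adjusted p = 0.0206 and 0.0217) and Psmb10 (-0.32, limma adjusted p = 0.0375 and 0.0393) were called lower.

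Psme1 and Psme2 encode the alpha and beta chains of PA28. The gene Psme1 overlaps an exon of Emc9 on the opposite strand, from which reads there cannot be told apart. Psme1 was at 74.7, 87.3, 87.7, 115 and 80.1 CPM in WT and 98.1, 106, 87.7, 123 and 118 CPM in DKO. WT 4 reached the DKO levels and DKO 3 was as low as WT 3, and the log2 fold change of 0.26 (SE 0.13) had an edgeR adjusted p of 0.258 and an interval of 0.981-fold to 1.47-fold. Psme2 was at 103, 97.2, 92.7, 134 and 134 CPM in WT and 101, 113, 114, 137 and 143 CPM in DKO, with a log2 fold change of 0.12 (SE 0.14, edgeR adjusted p = 0.650). In both genotypes the libraries numbered 4 and 5 were the highest. Psme2b, which shares sequence with Psme2, was at 0.981 to 5.67 CPM, and reads could be divided between them in error. Psme3, which forms the nuclear PA28 ring, was at 77.5 to 98.7 CPM in WT and 92.0 to 106 CPM in DKO (log2 fold change 0.12, SE 0.087, edgeR adjusted p = 0.452).

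**Figure D2:**
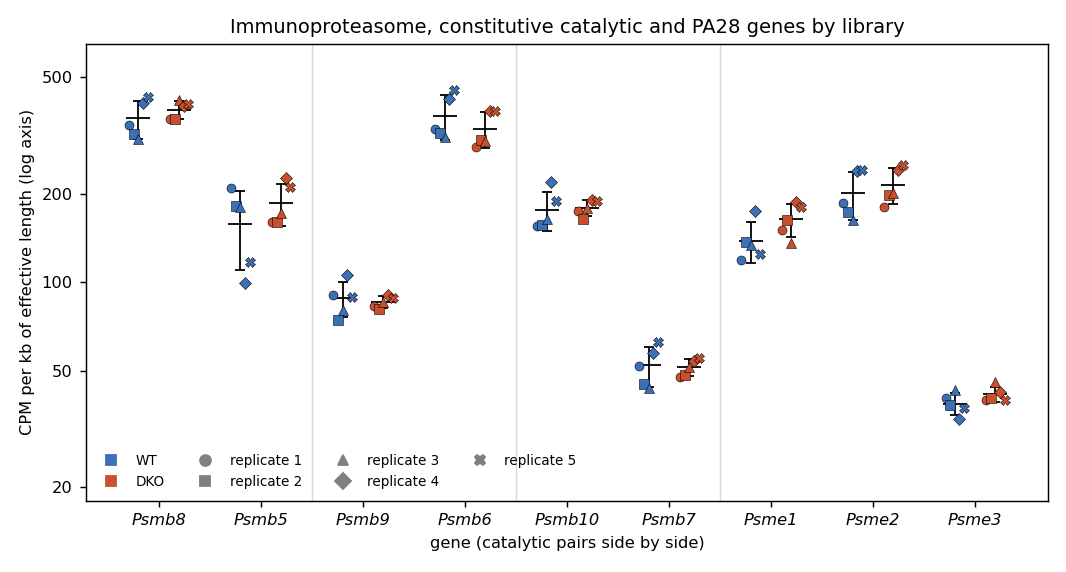
Level of the immunoproteasome genes beside their constitutive counterparts and of the 3 PA28 genes, in CPM per kb of effective length on a log axis, for each library (marker shape is the replicate number, colour the genotype), with the mean and SD of 5 libraries per genotype. Psmb8 lies above Psmb5 and Psmb10 above Psmb7, Psmb9 lies below Psmb6, and the genotypes overlap in every gene.

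Levels of different genes were compared per kb of effective length. In WT, the mean level was 370 CPM per kb for Psmb6, 363 for Psmb8, 201 for Psme2, 177 for Psmb10, 158 for Psmb5, 138 for Psme1, 88.2 for Psmb9, 52.1 for Psmb7 and 38.6 for Psme3. The ranges of mean ± SD overlapped for Psmb6 and Psmb8, and for Psme2, Psmb10, Psmb5 and Psme1 as neighbours in this order. Differences between genes within a library were not tested. Among all genes tested, Psmb8 stood at percentile 97.9 of WT levels, Psmb10 at 95.3 and Psmb9 at 90.8. At the other end were the meiotic and testis alpha subunit Psma8 with 4.90, the activator Psme4 with 2.02 and Psmc3ip with 2.09 CPM per kb.

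Each immunoproteasome subunit was then divided by the subunit it replaces within each library, which removes any scaling between libraries. Psmb10 over Psmb7 was 3.41 ± 0.393 in WT and 3.51 ± 0.115 in DKO, a difference of 0.047 on the log2 scale (SE 0.078; two-sided exact permutation test, p = 0.524, 0.540 after adjustment over 3 pairs). Psmb9 over Psmb6 was 0.241 ± 0.0289 in WT and 0.260 ± 0.0255 in DKO, a difference of 0.11 (SE 0.10; exact permutation p = 0.325, adjusted 0.540). Psmb8 over Psmb5 was 2.58 ± 1.22 in WT and 2.12 ± 0.270 in DKO, a difference of -0.17 (SE 0.31; exact permutation p = 0.540, adjusted 0.540). The WT ratios of this pair fell apart, with 1.64, 1.76 and 1.71 in WT 1 to WT 3 but 4.14 and 3.67 in WT 4 and WT 5, and the DKO ratios of 2.24, 2.24, 2.42, 1.75 and 1.92 lay within the WT range. Without WT 4 and WT 5, left out after the data were seen, but with DKO 4 and DKO 5 kept, the sign turned and the difference was 0.30 (exact permutation p = 0.0714, adjusted 0.214). Among the libraries numbered 1 to 3, the ratio was 1.64 to 1.76 in WT and 2.24 to 2.42 in DKO, without overlap. Among numbers 4 and 5 the order was the opposite, with 4.14 and 3.67 in WT and 1.75 and 1.92 in DKO. The ratio was not tested within these sets.

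**Figure D3:**
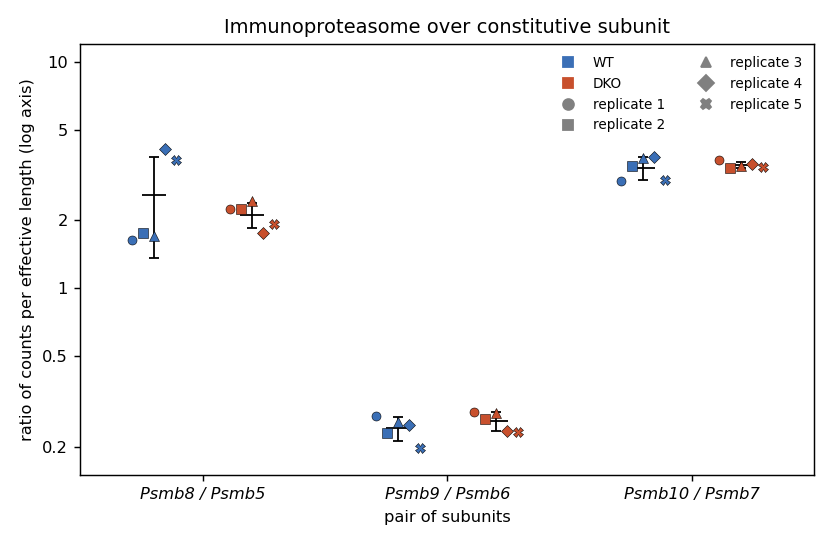
Ratio of each immunoproteasome subunit to its constitutive counterpart, as counts per effective length on a log axis, for each library with the mean and SD of 5 per genotype. Psmb8 over Psmb5 is at 4.14 and 3.67 in WT 4 and WT 5 and at 1.64 to 2.42 in the other 8 libraries, and the genotypes overlap in all 3 pairs.

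In WT 4 and WT 5 the level of Psmb5 was low. Psmb5, which carries the chymotrypsin-like site of the constitutive core, was at 115, 102, 105, 46.2 and 54.9 CPM in WT and 91.5, 92.6, 97.9, 133 and 123 CPM in DKO. WT 4 and WT 5 were lowest and DKO 4 and DKO 5 highest, and the genotypes as a whole were not called different (log2 fold change 0.34, SE 0.25, edgeR adjusted p = 0.428). The genotype difference in the libraries numbered 4 and 5 exceeded that in 1 to 3 by 1.53 on the log2 scale (SE 0.15, edgeR interaction term, adjusted p = 0.0196 over all genes). This test was added after the values had been seen, and called 0.0431% of all genes, 6 of 13916, with Psmb5 the only proteasome gene among them.

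The length given for Psmb5, which averages its transcripts by abundance, moved in the same libraries. It was 783.5 and 782.9 bases in WT 4 and WT 5 and 897.1 to 899.0 bases in the other 8. The gene lies at chr14:54614119-54618022 on the minus strand of GRCm38, where the GENCODE M21 annotation holds Psmb5-201 of 899 bases and Psmb5-202 of 622 bases, each with 3 exons. The shorter one leaves out 261 bases at the end of exon 2, chr14:54616515-54616775. If the annotation used for the files held the same pair, the lengths correspond to 41.7% and 41.9% of transcripts assigned to the shorter form in WT 4 and WT 5 and at most 0.673% elsewhere. The reads themselves were not analysed here. The stretch where the forms part, chr14:54616746-54616805 on the minus strand, is shown as read from the GENCODE transcripts, with the bases that only the longer form keeps in capitals.
Psmb5 exon 2: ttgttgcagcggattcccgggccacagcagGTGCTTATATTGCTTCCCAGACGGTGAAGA

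WT 4 and WT 5 also had the lowest level of Gt(ROSA)26Sor, the noncoding RNA of the Rosa26 locus. It was at 4.94, 4.84, 4.54, 0.781 and 1.92 CPM in WT 1 to WT 5 and up to 7.21 CPM in DKO, where the lowest library, DKO 1, was at 4.4 CPM. Which libraries came from Rosa26Stop-YFP mice is not given by the labels, and the part of the WT strain in the Psmb5 values was not tested.

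**Figure D4:**
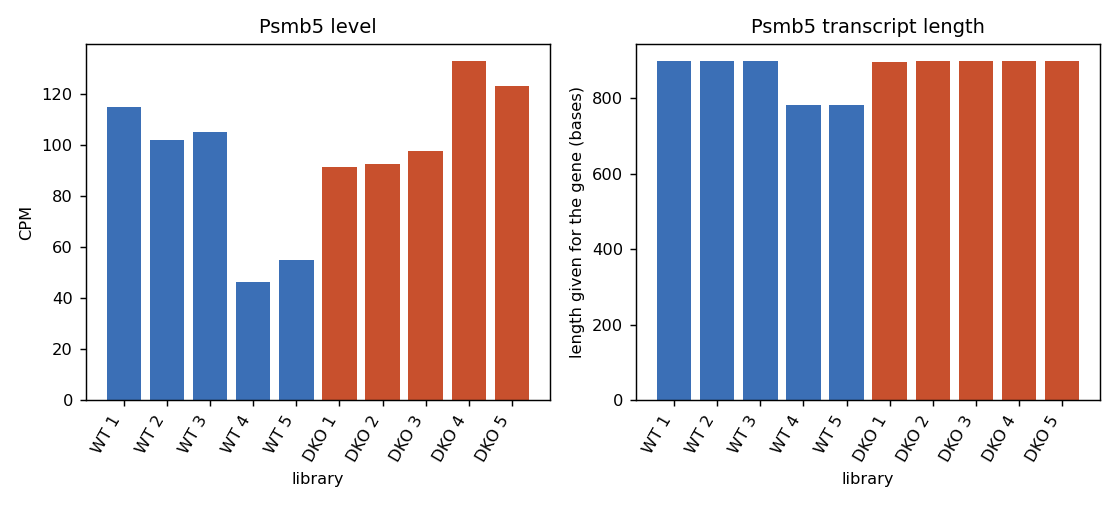
Psmb5 in each library, as CPM (left) and as the length in bases given for the gene in the deposited files (right). WT 4 and WT 5 are lowest on both axes, at 46.2 and 54.9 CPM and 783.5 and 782.9 bases.

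The other constitutive catalytic subunits did not share this pattern. Psmb6, with the caspase-like site, was at 151, 149, 150, 199 and 216 CPM in WT and 136, 145, 142, 185 and 182 CPM in DKO (log2 fold change -0.13, SE 0.14, edgeR adjusted p = 0.616). Psmb7, with the trypsin-like site, was at 43.1, 37.2, 36.9, 48.5 and 51.2 CPM in WT and 40.0, 40.9, 42.5, 45.1 and 46.4 CPM in DKO (log2 fold change -0.013, SE 0.11, edgeR adjusted p = 0.960). In both genes the libraries numbered 4 and 5 were the highest in each genotype. The gene Psmb7 overlaps an exon of Nek6 on the opposite strand, from which reads there cannot be told apart.

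Of the 14 subunits of the constitutive core other than Psma8, counted with Psmb5 to Psmb7, 0 were called. Among these, 2 fold changes were above 0 and 12 below, with a median of -0.068, beside 48.7% above 0 over all genes tested. Psma1, an alpha ring subunit, was at 195, 183, 169, 208 and 209 CPM in WT and 147, 144, 158, 180 and 170 CPM in DKO. Only DKO 4 and DKO 5 reached the lowest WT library, and the log2 fold change was -0.27 (SE 0.093, edgeR adjusted p = 0.108). Psmb1, a beta subunit without an active site, was at 129 to 181 CPM in WT and 123 to 160 CPM in DKO (log2 fold change -0.13, edgeR adjusted p = 0.560). Psma8, chosen after its values were seen, was at 4.68 to 7.90 CPM in WT and 5.55 to 11.6 CPM in DKO, the largest fold change of the 49 at 0.59 (SE 0.21, edgeR adjusted p = 0.121).

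Of the 17 genes of the 19S particle, 0 were called, with 4 fold changes above 0, 13 below and a median of -0.095. Over all genes tested 48.7% were above 0. Psmd6, a lid subunit, was at 132, 117, 112, 135 and 135 CPM in WT and 96.8, 92.5, 99.2, 122 and 115 CPM in DKO (log2 fold change -0.26, SE 0.10, edgeR adjusted p = 0.148). DKO 4 and DKO 5 overlapped the WT libraries and the other 3 lay below them. Psmc6, an ATPase of the base, was at 62.6 to 76.1 CPM in WT and 58.0 to 64.8 CPM in DKO (log2 fold change -0.19, edgeR adjusted p = 0.198). Psmd1, a scaffold of the base, was at 123 to 150 and 121 to 146 CPM (log2 fold change -0.080, edgeR adjusted p = 0.633). Psmd3, a lid subunit chosen after its values were seen, was at 55.8 and 65.4 CPM in WT 1 and WT 5 and at 77.5 to 109 CPM in the other libraries, and WT 1 and WT 5 also had the highest shares of ribosomal RNA, 0.877% and 1.19% against 0.341% to 0.568% elsewhere. The part of RNA composition in this was not tested.

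The 7 assembly chaperones build the core (Psmg1 to Psmg4) or the base (Psmd5, Psmd9 and Psmd10). All had fold changes below 0, from -0.24 to -0.12, and 0 were called. Over all genes tested 48.7% were above 0. Psmd5 was at 91.7 to 123 CPM in WT and 81.5 to 99.5 CPM in DKO (log2 fold change -0.16, edgeR adjusted p = 0.352), and Psmg4 at 7.47 to 12.6 and 6.56 to 9.21 CPM (log2 fold change -0.24, edgeR adjusted p = 0.391). The 5 immunoproteasome and PA28 genes had a median log2 fold change of 0.12 and the 43 remaining genes, Psmc3ip left out, one of -0.095, with 11 above 0 and 32 below, and on the TPM scales Psmb8, Psme1 and Psme2 were below 0 as well. Psmc3ip itself was at 1.35 to 2.44 CPM in WT and 1.43 to 2.32 CPM in DKO (log2 fold change 0.064, edgeR adjusted p = 0.899).

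Proteasome genes also varied with the replicate number. This was noticed in the data and is given as a description. The mean of the libraries numbered 4 and 5 was above that of 1 to 3 in both genotypes for 42 of 49 genes, beside 30.4% of all genes tested. Both libraries were above all of 1 to 3 for 29 of 49 genes in WT (all genes 15.3%), for 39 in DKO (18.9%) and for 27 in both (7.25%). The median difference was 0.26 in WT and 0.23 in DKO on the log2 scale, where all genes had -0.018 and -0.017. Summed over the 49 genes, the level was 4293 to 4440 CPM in WT 1 to WT 3, 5188 and 5045 CPM in WT 4 and WT 5, 4120 to 4275 CPM in DKO 1 to DKO 3, and 4972 and 4923 CPM in DKO 4 and DKO 5. The 7 exceptions to the common direction were Psmb5, Psma8, Psme3, Psmd7, Psmd5, Psme4 and Psmf1. What the numbers share is not stated, so batch, age and litter cannot be told apart.

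**Figure D5:**
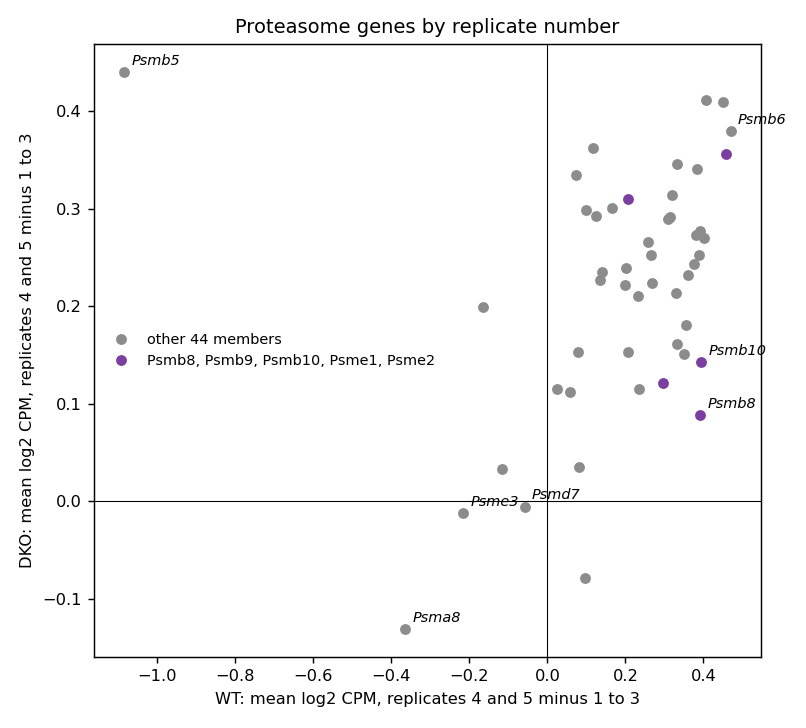
Difference in mean log2 CPM between replicates 4 and 5 and replicates 1 to 3 for each of the 49 genes, in WT (x axis) and DKO (y axis). Of the points, 42 lie at the upper right, and Psmb5 lies farthest to the upper left, at -1.08 in WT and 0.44 in DKO.

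With a term for the 2 sets of numbers, 0 genes were called higher and 2 lower, where 6.15% and 4.13% of all genes were called. The 2 were Psma1 (log2 fold change -0.27, edgeR adjusted p = 0.0245) and Psmd6 (-0.27, edgeR adjusted p = 0.0367). Psmb8, Psmb9, Psmb10, Psme1 and Psme2 were not called in that fit. With each replicate number as a block, 0 were called higher and 0 lower, where 2.63% and 1.3% of all genes were called.

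Genes that work with the proteasome were compared in the same fit, where 4.34% of all genes tested were called higher and 1.85% lower. Of 10 tested subunits and cofactors with other symbols, 0 were called. Pomp, the maturation factor of the core, was at 113 to 158 CPM in WT and 111 to 132 CPM in DKO (log2 fold change -0.050, edgeR adjusted p = 0.809), and Usp14, a deubiquitinase bound to the 19S particle, at 102 to 118 and 89.8 to 103 CPM (log2 fold change -0.17, edgeR adjusted p = 0.215). Of 6 shuttle factors, which carry ubiquitinated proteins to the proteasome, 0 were called. Their fold changes were above 0 in 5 and below in 1, with a median of 0.62, where 48.7% of all genes tested were above 0. At an unadjusted edgeR p under 0.05, 3 of the 6 were higher, against 13.3% of all genes. Ubqln1 was at 7.22 to 13.3 CPM in WT and at 8.92 to 22.9 CPM in 4 DKO libraries but 74.6 CPM in DKO 2 (log2 fold change 1.33, SE 0.52, edgeR adjusted p = 0.151). Without DKO 2 the fold change of Ubqln1 was 0.47 (edgeR adjusted p = 0.399). Of 6 ubiquitin and E1 enzyme genes 0 were called, and the polyubiquitin gene Ubb had a log2 fold change of 0.034 (SE 0.086, edgeR adjusted p = 0.843).

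Through the NRF1 and NRF2 pathway cells raise proteasome transcription. Of 8 genes of this pathway, 0 were called higher (all genes 4.34%) and 1 lower (1.85%). This was Mafg, a partner of these factors, at 70.2, 56.0, 55.6, 52.8 and 70.4 CPM in WT and 44.6, 42.2, 51.7, 37.3 and 40.9 CPM in DKO (log2 fold change -0.49, SE 0.12, edgeR adjusted p = 0.0353). Every DKO library lay below every WT library. WT 1 and WT 5, the highest, are also the libraries with the most ribosomal RNA, and without them Mafg was at -0.34 (edgeR adjusted p = 0.159). The part of RNA composition was not tested. The call was lost in 13 of 29 alternative settings, with adjusted p-values of 0.0579 to 0.248.

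MHC class I molecules present the peptides that proteasomes produce. Of 11 genes for trimming and loading these peptides, 2 were called higher (all genes 4.34%) and 0 lower (1.85%). H2-K1, a class I heavy chain, was at 530, 513, 503, 520 and 406 CPM in WT and 938, 746, 881, 982 and 967 CPM in DKO, without overlap (log2 fold change 0.87, SE 0.10, edgeR adjusted p = 5.24e-04). H2-D1 was at 731, 1100, 1150, 1060 and 457 CPM in WT and 2520, 2010, 1410, 2520 and 2160 CPM in DKO, again without overlap (log2 fold change 1.24, SE 0.25, edgeR adjusted p = 0.0145). WT 1 and WT 5, the libraries with the most ribosomal RNA, were the lowest in WT for H2-D1, and without them the log2 fold change was 0.94 (edgeR adjusted p = 0.0144). Its call was lost in 3 of 29 settings, the replicate block among them, with adjusted p-values of 0.0537 to 0.172. These genes belong to a polymorphic family of near-identical copies, so their estimated counts are uncertain. Tap1 and Tap2, the peptide transporter genes that lie beside Psmb9 and Psmb8 on chr17, were not called (log2 fold changes 0.084 and 0.042, edgeR adjusted p = 0.762 and 0.754).

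Of 13 regulators of the interferon pathways, 2 were called higher (all genes 4.34%) and 0 lower (1.85%). Ifnar2, a chain of the type I interferon receptor, was at 345, 445, 416, 475 and 325 CPM in WT and 568, 509, 550, 573 and 543 CPM in DKO (log2 fold change 0.45, SE 0.11, edgeR adjusted p = 0.0333). Every DKO library lay above every WT library, with DKO 2 the nearest to WT. WT 1 and WT 5 were again the lowest, and without them Ifnar2 was at 0.30 (edgeR adjusted p = 0.0972). The part of ribosomal RNA in H2-D1 and Ifnar2 was not tested. The call was lost in 16 of 29 settings, with adjusted p-values of 0.0510 to 0.345.

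Set beside the promoters shown above, Psmb10, with an E-box, had a log2 fold change of -0.0044 in DKO, and the other genes with an E-box, Psma4, Psmd9 and Psme3, had -0.045, -0.12 and 0.12, none of them called. A match is a description of the sequence and not a site of binding.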

How the data were processed

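RNA of sorted microglia from 5 WT and 5 DKO libraries was sequenced as paired reads. Per the labels, the authors used cutadapt 2.6 for trimming, FastQC 0.11.8 for quality and STAR 2.5.3a for alignment to the mm10 build. How gene values were then made is not stated in the labels or methods. Each deposited table lists, per gene, an estimated count without normalization, a TPM that the authors' tool brought to one sum in all libraries, and 2 lengths in bases, one of them effective. RNA integrity was not assessed for these samples. Groups follow the genotype in the labels.

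Estimated counts were rounded, filtered with filterByExpr (minimum count 10) and, after TMM scaling, compared with edgeR 4.0.16 in R 4.3.3 (quasi-likelihood, DKO over WT, all 10 libraries), with adjustment over 13916 genes and a threshold of 0.05. The study's methods name a linear mixed model (dream) with no random term stated. CPM use TMM factors, intervals use the t distribution of the fit, and spreads are SDs of 5 libraries, which with the depth of 22483044 to 26109107 counts sets the precision. For the subunit ratios, a two-sided exact permutation test set 5 libraries against 5. Coordinates are those of GENCODE M21. The edgeR script was tested on simulated data. TPM were used only in alternatives, with 1 or 0.1 added before log2. DESeq2 1.42.0 and limma 3.58.1 were among the alternatives, as were other scalings and filters, effective length, GC content, blocks and leaving out libraries. The interaction with the number sets and the fits without WT 4 and WT 5 were chosen after seeing the data.

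The members and lists were chosen with earlier results of these data known. Values are given by library for the 5 immunoproteasome and PA28 genes, for Psmb5, Psmb6 and Psmb7, by range or library for Psme3 and for the gene of smallest p in each role group, and for up to 4 changed genes of each pathway list or its 2 most highly expressed where none changed. Some genes of these lists are not reported here by name and are included in the counts. Psma8 and Psmd3 were chosen after their values were seen, and the genes with an E-box and Tap1 and Tap2 are named beside the rule.

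Replicate numbers were checked as a possible pairing by correlating the deviations of equally numbered libraries from their group means. The 5 correlations ran from -0.23 to 0.20 and not every one was over 0.1, so the numbers were not treated as pairs.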

Additional observations from a re-analysis of the deposited data

Results flagged for a closer look

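In 104 groups of 5 libraries, those of 49 genes and 3 ratios in each genotype, 4 held a library whose gap to the nearest other exceeded 0.71 of the group's range, and chance gives about 1 in 20. Psma4, an alpha ring subunit, was at 84.6 CPM in WT 4 and 64.6 to 67.8 CPM in the other WT libraries. Psmc1, a base ATPase, was at 121 CPM in WT 4 and 84.2 to 92.2 CPM in the others, and Psmd12, a lid subunit, at 82.4 CPM in WT 4 and 70.8 to 73.5 CPM in the others. Psmd5, a chaperone of the base, was at 123 CPM in WT 1 and 91.7 to 101 CPM in the others.

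For Psmb5, the genotype difference in the libraries numbered 4 and 5 exceeded that in 1 to 3 by 1.53 on the log2 scale (SE 0.15, edgeR interaction adjusted p = 0.0196). The level was lower in 2 of 2 WT libraries numbered 4 and 5 than in all of WT 1 to WT 3, and higher in 2 of 2 DKO libraries than in all of DKO 1 to DKO 3. The test was chosen after these values were seen, and its cause was not tested.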

How the results depend on the processing

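Of 29 alternative settings, 24 called 0 proteasome genes in either direction. Library size alone called 1 lower (Psma1), the term for the number sets 2 lower, and log2 TPM with 1 or 0.1 added 37 lower each, where the median of all genes moved to -0.26 and -0.35, that of the 49 genes was -0.42 and -0.43, and 30.1% of all genes were called lower. Leaving out 1 library at a time called 0 to 1 higher, the 1 being Psma8 without WT 3 (edgeR adjusted p = 0.0474), and 0 lower. Upper-quartile factors and the GC correction moved the median of all genes to -0.11 and -0.15, and without WT 4 and WT 5, 31 of 49 fold changes were above 0 in place of 15.

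Signs turned as follows, on the log2 scale, and the cause was not tested. None of these genes had been called in the main comparison. On the TPM scales (1 or 0.1 added, alike where 1 value is given), Psmb8 was at -0.24, Psme1 -0.10, Psme2 -0.25, Psmb5 -0.069, Psme3 -0.24, Psmc3ip -0.12 and -0.17, Ubb -0.33 (limma adjusted p = 0.0286 and 0.0238) and Psmd3 -0.13. With the GC correction, Psmb8 was at -0.046, Psme2 -0.052, Psme3 -0.044, Psmc3ip -0.076 and Ubb -0.15. Upper-quartile factors gave -0.022 for Psmc3ip and -0.068 for Ubb, and library size alone -0.035 for Ubb. With no count filter, Psmb10 was at 0.011 and Psmb7 at 0.0035. With effective length as an offset, Psmb10 was at 0.047, Psmb7 at 0.0012 and Pomp at 0.041. Limma voom gave 0.0092 for Psmb10 and the set term 0.0072. Numbers 1 to 3 alone gave 0.041 for Psmb9, 0.10 for Psmb10, -0.20 for Psmb5, 0.070 for Psmb7 and 0.025 for Pomp, and numbers 4 and 5 alone -0.057 for Psmb8 and -0.043 for Ubb. Without WT 1 and WT 5, Psmb7 was at 0.073, Psmc3ip -0.16, Psmd3 -0.050 and the ratio of Psmb10 to Psmb7 -0.071. Without WT 4 and WT 5, Psmb9 was at 0.097, Psmb10 0.17, Psmb6 0.079, Psmb7 0.14, Psmb1 0.041, Pomp 0.080 and the ratio of Psmb8 to Psmb5 0.30. Leaving out 1 library at a time gave -0.086 to 0.043 for Psmb9, -0.053 to 0.088 for Psmb10, -0.065 to 0.054 for Psmb7, -0.031 to 0.19 for Psmc3ip, -0.085 to 0.046 for Pomp, -0.00074 to 0.083 for Ubb and -0.31 to 0.027 for the ratio of Psmb8 to Psmb5, which turned without WT 4.

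With the replicate number as a block, 0 proteasome genes were called higher and 0 lower, and Psmb10 was at 0.0087 (0.0092 as a random effect). The correlations of equally numbered libraries, -0.096, 0.064, -0.23, 0.20 and 0.10, give no pairing, and 1 of 5 numbers correlated best with its own. Under the block H2-D1 was no longer called. H2-K1 lost its call only with numbers 4 and 5 alone (edgeR adjusted p = 0.0724) and H2-D1 in 3 settings (0.0537 to 0.172).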
